A study of Mus musculus with 8 samples.

Results

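The envelope genes of the epidermal differentiation complex were examined in ear epidermis of mice with and without an inducible deletion of A20. The members are every gene whose symbol begins with Sprr or Lce, together with Flg, Flg2, Hrnr, Rptn, Crnn, Ivl, Lor, Tchh and Tchhl1. Predicted genes and S100 genes were left out, which gave 47 members among 51912 gene identifiers. The members comprise 2 Sprr1, 13 Sprr2, 14 Lce1 and 6 Lce3 genes, Sprr3 and Sprr4, Lce6a, the 7 S100-fused type genes (Flg, Flg2, Hrnr, Rptn, Crnn, Tchh, Tchhl1), and Ivl with Lor. All 47 lie on chromosome 3 of mouse build GRCm38, between positions 92080271 and 93471980, and 44 passed a filter on counts and were tested.

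As keratinocytes leave the basal layer they stop dividing, flatten and replace their plasma membrane with the cornified envelope, a sheet of proteins cross-linked by transglutaminases. Loricrin and involucrin, the small proline-rich (SPRR) proteins and the late cornified envelope (LCE) proteins are its building blocks. The S100-fused type proteins, of which filaggrin is the best known, bundle keratins and bind to the envelope. In intact skin Lor, Flg and the Lce1 genes are typical of the uppermost living layers, whereas many Sprr2 and Lce3 genes are known for their induction in wounded or inflamed skin.

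RNA was sequenced from ear epidermal sheets of 8 mice, each library from a different animal, 4 per group. Both groups were A20F/F, that is, homozygous for a floxed allele of Tnfaip3, the gene of the NF-kB inhibitor A20. The mice labelled A20KIKO were Krt5-CreERT2+ and those labelled A20WT were Krt5-CreERT2-. All mice were 8 weeks old and received 1 mg of tamoxifen intraperitoneally on 2 consecutive days, and were killed 7 days after the first injection, so that tamoxifen was common to both groups while the Cre protein was present in 1 of them. The Krt5 promoter that drives the Cre is active in basal keratinocytes, whereas most envelope genes are transcribed in the layers above. The Cre and the members thus need not be expressed in the same cells. Which layers carried the deletion was not measured.

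Libraries held between 40451075 and 89624373 counts, of which the members took 1.04% to 2.17%. Values are normalised counts (CPM), scaled to library size, as mean ± SD over 4 libraries. Changes are fitted log2 differences, A20KIKO minus A20WT, with a standard error (SE), and a gene was called at an adjusted p under 0.05 in edgeR's quasi-likelihood test over 16512 genes. Tnfaip3 stood at 90.9, 55.0, 64.0 and 86.2 CPM in A20KIKO mice 1 to 4 and at 13.5, 19.6, 17.7 and 15.4 CPM in A20WT mice 1 to 4. The whole-gene count was thus higher in the libraries labelled A20KIKO. It sums all exons and does not test the deletion, and A20KIKO and A20WT below name the labels. Markers of keratinocytes were abundant, with Krt14 at 20573 ± 5099 CPM (SD, n = 4) and Krt10 at 17206 ± 3074 CPM (SD, n = 4) in A20WT, while the summed level of 6 fibroblast markers was 15.1 to 36.7 CPM in A20KIKO and 39.7 to 55.3 CPM in A20WT. The library of A20KIKO mouse 4 stood apart from the other 7 in the Sprr1, Sprr2 and Lce3 genes. That of A20WT mouse 4 was the highest of its group in every tested gene of these subfamilies. Its margin was small in some, such as Sprr1a at 358 CPM against 258 CPM in A20WT mouse 1. Results that rest on these libraries are given with and without them.

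Among the 44 tested members, Flg2 alone was called, and it was lower in A20KIKO. Over all genes tested 3.49% were called, 2.43% as higher and 1.06% as lower in A20KIKO, so a share of 1 in 44 lies near that of genes at large. No member was called higher by edgeR, where 2 had an unadjusted p under 0.05 in that direction (Sprr2b and Hrnr) against 8.48% of all genes. DESeq2 called Hrnr higher, where it called 4.41% of all genes higher and 2.45% lower. Limma-voom, which called 6.73% of all genes, called no member higher. In the lower direction 10 members had an unadjusted p under 0.05, against 6.92% of all genes, and these were Flg2 and 9 Lce1 genes. The groups of 4 did not overlap in 1 member, Flg2, where 10.6% of all genes did not overlap (5.78% higher and 4.79% lower in A20KIKO).

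The subfamilies differed in the direction of their fitted changes. All 14 Lce1 genes had a negative log2 change, with a median of -0.55, and all 11 tested Sprr2 genes a positive one, with a median of 3.36. The 6 Lce3 genes had a median of 1.02. The S100-fused type genes had a median of 0.20, with 5 positive and 2 negative changes. Over all genes tested the median was -0.01 and 51% of the changes were negative. Without A20KIKO mouse 4 the Sprr2 median was -1.01 and the Lce3 median -2.39, while that of Lce1 was -0.47. In bulk samples of this kind, fewer cells of a type and less RNA per cell cannot be told apart.

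**Figure D1:**
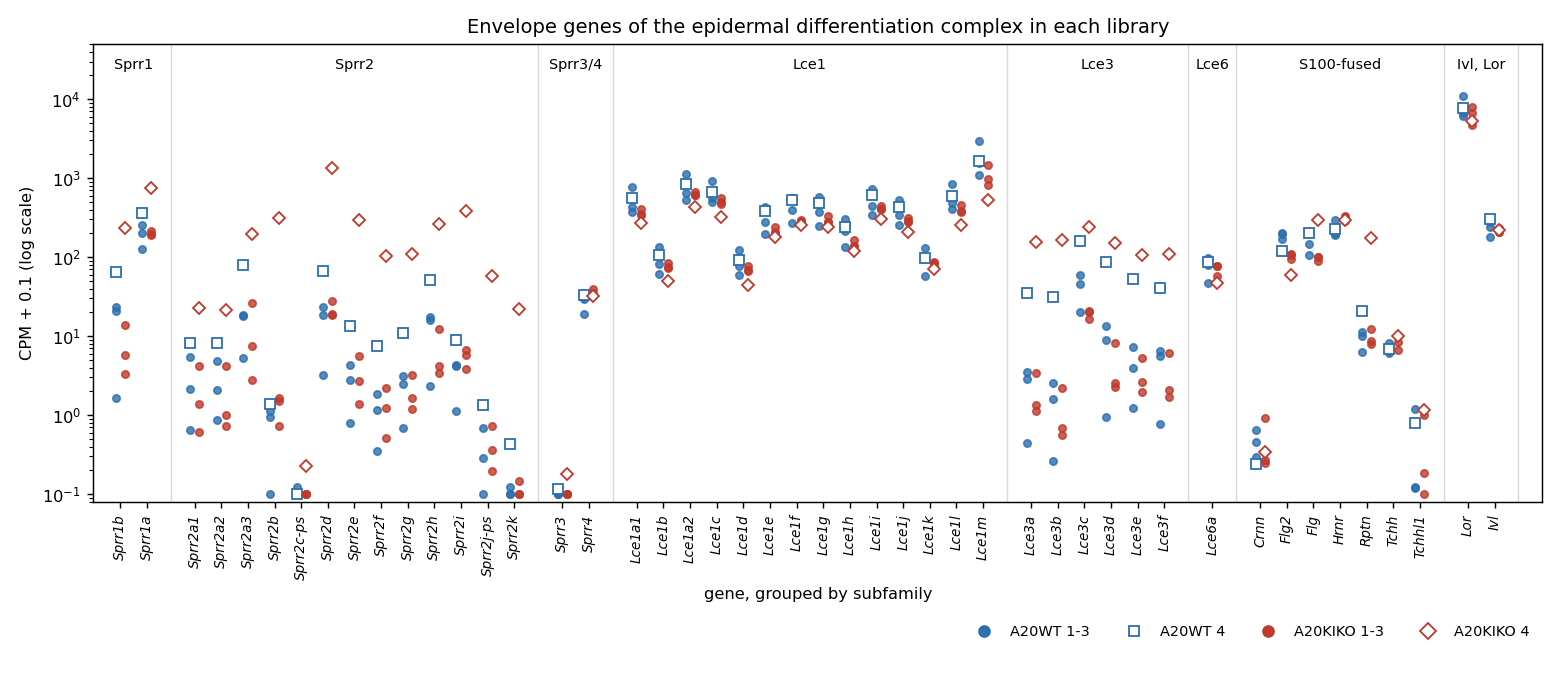
Level of each of the 47 members (CPM plus a pseudocount of 0.1, log scale) in each of the 8 libraries, grouped by subfamily, with the libraries of mouse 4 as open symbols. The open diamonds of A20KIKO mouse 4 lie above all other libraries in the 11 tested Sprr2 and the 6 Lce3 genes and below the other A20KIKO libraries in the 14 Lce1 genes.

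**Figure D2:**
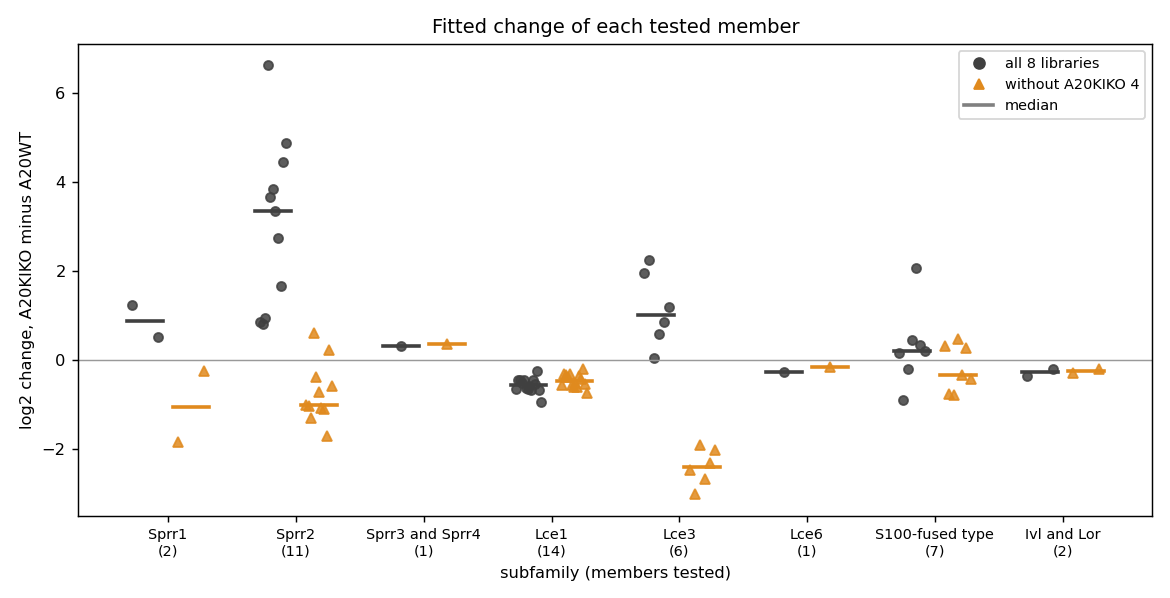
Fitted log2 change (A20KIKO minus A20WT) of each tested member by subfamily, with all 8 libraries (grey circles) and without A20KIKO mouse 4 (orange triangles). Bars are medians, which go from 3.36 to -1.01 in Sprr2 and from 1.02 to -2.39 in Lce3, and from -0.55 to -0.47 in Lce1.

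The S100-fused type genes encode long repetitive proteins that begin with an S100 calcium-binding domain. Flg2 encodes filaggrin-2, which is processed in the cornified layer and forms part of the cornified cell. It was the member that was called. Flg2 stood at 108, 105, 94.3 and 60.1 CPM in A20KIKO mice 1 to 4 and at 169, 197, 204 and 119 CPM in A20WT mice 1 to 4. Every A20KIKO library lay below every A20WT library, and mouse 4 was the lowest of its group in both. The means were 91.9 ± 22.1 CPM (SD, n = 4) in A20KIKO and 172 ± 38.6 CPM (SD, n = 4) in A20WT, and the fitted difference was -0.90 (SE 0.20, edgeR adjusted p = 0.0292). The call was lost without A20KIKO mouse 3 (adjusted p = 0.0753), A20WT mouse 1 (0.123), A20WT mouse 2 (0.099) or A20WT mouse 3 (0.0979), with log2 changes from -1.05 to -0.75 over all 8 libraries left out in turn. Without both mice 4 the log2 change was -0.89 (edgeR adjusted p = 0.0108).

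Hrnr encodes hornerin, a filaggrin-like protein of the cornified envelope, from a gene next to Flg. It stood at 329, 287, 323 and 298 CPM in A20KIKO mice 1 to 4 and at 192, 195, 293 and 224 CPM in A20WT mice 1 to 4. A20WT mouse 3 reached the A20KIKO range, and the other A20WT libraries lay below it. The log2 change was 0.45 (SE 0.14), which was not called by edgeR (adjusted p = 0.124). It was called by DESeq2 (adjusted p = 0.0434) and by edgeR without A20WT mouse 3 (adjusted p = 0.0335). Over the other leave-one-out fits the direction was the same, with log2 changes of 0.38 or more.

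Flg encodes profilaggrin, the precursor of filaggrin and of the free amino acids that hold water in the cornified layer. It stood at 100, 100, 89.5 and 292 CPM in A20KIKO mice 1 to 4 and at 145, 105, 212 and 204 CPM in A20WT mice 1 to 4. A20KIKO mouse 4 was the highest of the 8 and the other A20KIKO libraries were the 3 lowest. The log2 change was -0.20 (SE 0.44, edgeR adjusted p = 0.9) with all libraries and -0.78 without A20KIKO mouse 4. Rptn, the gene of repetin, stood at 7.92 to 12.1 CPM in A20KIKO mice 1 to 3, at 173 CPM in A20KIKO mouse 4 and at 6.14, 9.80 and 11.2 CPM in A20WT mice 1 to 3, with A20WT mouse 4 above them. Its log2 change was 2.07 (SE 1.23, edgeR adjusted p = 0.514) with all libraries and -0.32 without A20KIKO mouse 4. Tchh, the gene of trichohyalin of the inner root sheath of the hair follicle, stood at 6.65 to 9.83 CPM in A20KIKO and at no more than 8.11 CPM in A20WT. Crnn and Tchhl1 stayed near or under 1 CPM in every library.

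Reads from these genes carry a limit of their own. The exons of Flg2 span 20803 bases but hold 9055 distinct words of 50 bases, and those of Flg span 18829 bases with 8721, because the proteins are built of repeats. Hrnr, Rptn and Tchh overlap the predicted gene Gm37245, Rptn also overlaps Gm37857, and Flg overlaps Rplp0-ps1. The library chemistry keeps no strand, so reads of overlapping genes cannot be told apart.

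**Figure D3:**
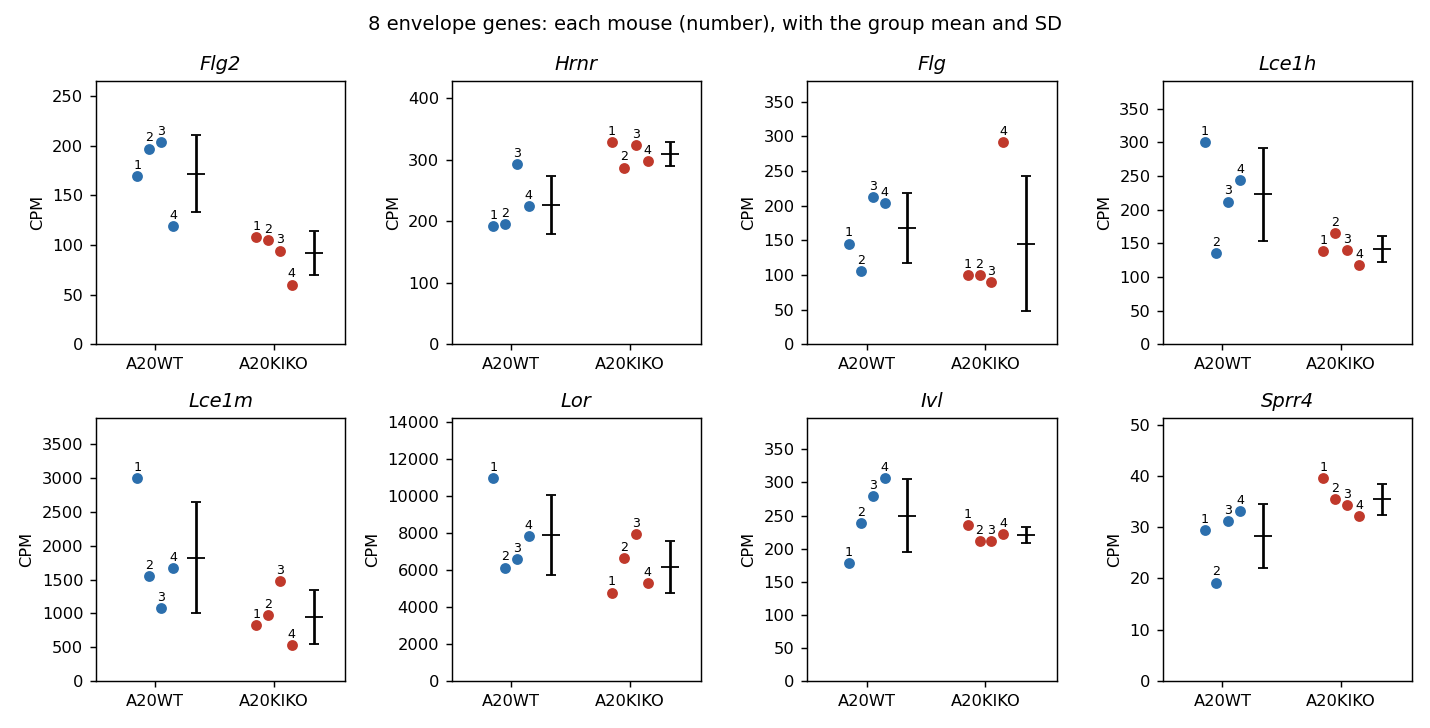
CPM of 8 members in each mouse (points, labelled with the mouse number) with the group mean and SD (bars, n = 4). Flg2 does not overlap between the groups, Hrnr overlaps through A20WT mouse 3, and Flg spreads in A20KIKO from 89.5 to 292 CPM.

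The promoters of these genes differ in short sequence elements. RefSeq promoters on GRCm38.p6, from 250 bases before the start site to 50 after it, were matched for 43 members. The AP-1 motif (TGANTCA, either strand), bound by Fos and Jun proteins, was found in 16 of the 43 (37.2%) and in 7.81% of all 32851 promoters. It was found in 5 of the 7 S100-fused type genes, in both Sprr1 genes, in Ivl and Lor, in 7 of 10 Sprr2 genes, and in 0 of 13 Lce1 and 0 of 6 Lce3 genes. The letters of the TATA box (TATAAA, either strand, anywhere in the window) were found in 20 of 43 (46.5%) against 13.6% of all promoters. The 20 include matches far from the start site, at -218 in Lce6a and -243 in Lce3e. The kappa B motif was found in 1 of 43, Sprr2e, against 4.01%. The STAT motif (TTCNNNGAA) was found in 3 of 43 against 8.30%, and the core of the interferon-stimulated response element (ISRE) in 0 of 43 against 3.44%. No match overlapped a match of another of these motifs. A match is a description of letters and not a measured binding site. The member found lower in A20KIKO and 2 that were high in A20KIKO mouse 4 are shown around the AP-1 match, in capitals, each 5′ to 3′ on the strand of the gene. Positions are chr3:93197190-93197224 (plus strand) for Flg2, chr3:93393589-93393623 (plus strand) for Rptn and chr3:92438870-92438904 (minus strand) for Sprr1b, at -69, -96 and -111 from the start site.
Flg2: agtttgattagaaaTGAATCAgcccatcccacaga
Rptn: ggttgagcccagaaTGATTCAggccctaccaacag
Sprr1b: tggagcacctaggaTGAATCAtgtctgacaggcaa
Hrnr has no AP-1 match in its window, and its last 90 bases before the start site, chr3:93319659-93319748 (plus strand), hold the TATA box in capitals at -31.
Hrnr: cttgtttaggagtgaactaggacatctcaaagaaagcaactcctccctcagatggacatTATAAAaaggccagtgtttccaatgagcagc

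The Lce1 genes encode small cysteine- and glycine-rich proteins of the late envelope and had the highest summed level of the Sprr, Lce and S100-fused type subfamilies, below that of Lor with Ivl. Their summed level was 4462, 5102, 5106 and 3283 CPM in A20KIKO mice 1 to 4 and 10176, 4996, 5495 and 7296 CPM in A20WT mice 1 to 4. A20WT mice 1, 3 and 4 lay above all A20KIKO libraries, and A20WT mouse 2 lay within the A20KIKO range. The 14 genes ranked the libraries alike: A20WT mouse 1 was the highest of the 8 in 14 of 14, A20WT mouse 2 the lowest of its group in 13, and A20KIKO mouse 4 the lowest of its group in 14.

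No Lce1 gene was called by edgeR, with log2 changes from -0.94 to -0.25 and adjusted p from 0.109 to 0.637, and 9 of 14 had an unadjusted p under 0.05. DESeq2 called 4 of them lower (Lce1a1, Lce1f, Lce1h and Lce1l, named here after their values were seen), where it called 2.45% of all genes lower. Limma-voom called none. Without A20WT mouse 2 edgeR called 4 lower (Lce1e, Lce1f, Lce1g and Lce1h), where 0.851% of all genes were called lower. All 14 were negative in each of the other fits of single genes, and the median ranged from -0.72 to -0.37 with each library left out in turn. Members share up to 27.1% of their 50-base words with other genes, so their counts may not be independent of each other. How reads of shared sequence were counted is not stated in the labels.

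Lce1m had the lowest log2 change, -0.94 (SE 0.37, edgeR adjusted p = 0.252), and shares none of its words. It stood at 822, 973, 1481 and 525 CPM in A20KIKO mice 1 to 4 and at 2996, 1556, 1082 and 1671 CPM in A20WT mice 1 to 4. The groups overlapped through A20KIKO mouse 3 and A20WT mouse 3. Lce1h stood at 139, 165, 140 and 118 CPM in A20KIKO and at 301, 136, 212 and 244 CPM in A20WT (log2 change -0.67, SE 0.20, edgeR adjusted p = 0.113). There A20WT mouse 2 lay among the A20KIKO libraries and the other A20WT libraries lay above all of them. Lce1a2 and Lce1c, the next most abundant after Lce1m, had log2 changes of -0.44 and -0.51 (edgeR adjusted p = 0.363 and 0.249). The last 90 bases before the start site of Lce1h, at chr3:92765066-92765155 (minus strand), hold none of the 5 motifs searched.
Lce1h: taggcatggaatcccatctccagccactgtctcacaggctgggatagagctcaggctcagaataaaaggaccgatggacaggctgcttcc

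Lor and Ivl, the genes of loricrin and involucrin, were not called. Lor stood at 4776, 6656, 7932 and 5282 CPM in A20KIKO mice 1 to 4 and at 10943, 6130, 6603 and 7837 CPM in A20WT mice 1 to 4, with a fitted difference of -0.35 (SE 0.21, edgeR adjusted p = 0.475). As in the Lce1 genes, A20WT mouse 1 was the highest and A20WT mouse 2 the lowest of its group. Ivl stood at 211 to 236 CPM in A20KIKO and at 178 to 306 CPM in A20WT, with a fitted difference of -0.19 (SE 0.15, edgeR adjusted p = 0.64). Lce6a had a fitted difference of -0.27 (SE 0.22, edgeR adjusted p = 0.634).

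Per length of exon, the highest levels in A20WT were those of Lor at 4428 ± 1218 RPKM (SD, n = 4), normalised counts per kilobase, followed by Lce1m at 1924 ± 865, Lce1a2 at 1103 ± 364 and Lce1c at 909 ± 255 RPKM. Lor lay above Lce1m beyond both SDs, while Lce1m, Lce1a2 and Lce1c lay within them. The next 8 were all Lce1 genes, from Lce1l at 867 ± 282 to Lce1h at 316 ± 97.9 RPKM. Sprr1a ranked 13 at 294 ± 120 RPKM, within the SD of Lce1h. Below it Lce1b, Lce1k, Lce1d, Ivl, Lce3c and Sprr4 lay close together, from 148 ± 47.5 for Lce1b to 122 ± 26.9 RPKM for Sprr4, with Ivl at 130 ± 28.9 RPKM. The long genes ranked low on this scale, with Hrnr at 20.2 ± 4.21, Flg at 8.85 ± 2.68 and Flg2 at 8.27 ± 1.86 RPKM. Their exons hold repeats, for Hrnr 11187 bases with 4559 distinct words of 50 bases. How reads of repeated sequence were counted is not stated, so these levels may be too low. Sprr3, a gene of internal stratified epithelia, was the lowest at 0.00318 ± 0.00635 RPKM (SD, n = 4).

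The Sprr2 genes, a tandem array of small proline-rich envelope precursors, gave the largest fitted changes, and these rested on A20KIKO mouse 4. Their summed level was 91.0, 38.3 and 42.6 CPM in A20KIKO mice 1 to 3 and 3143 CPM in A20KIKO mouse 4. In A20WT mice 1 to 4 it was 67.9, 14.5, 82.9 and 257 CPM. A20KIKO mouse 4 was 34.6-fold above the next A20KIKO library and 12.2-fold above the next of all libraries, and A20WT mouse 4 was 3.10-fold above the next A20WT library. A20KIKO mouse 4 was the highest of the 8 in 11 of 11 tested Sprr2 genes and A20WT mouse 4 the highest of its group in 11 of 11. Over all genes tested these libraries were the highest of their group in 26.6% and 19.1%.

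No Sprr2 gene was called by edgeR or limma-voom, with edgeR adjusted p from 0.304 to 0.843, SE from 1.27 to 2.63, and 1 unadjusted p under 0.05. DESeq2 called none and gave no adjusted p for 8 of the 11. Without A20KIKO mouse 4 the changes of 9 of 11 were negative, with a median of -1.01 and 0 called, where 2.9% of all genes were called. Without both mice 4 the median was 0.25, with 6 of 11 positive and 0 called, where 2.14% of all genes were called.

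Sprr2b had the highest log2 change of all members, 6.63 (SE 2.63, edgeR adjusted p = 0.304). It stood at 1.41, 1.57, 0.637 and 315 CPM in A20KIKO mice 1 to 4 and at 0.853, 0, 1.02 and 1.27 CPM in A20WT mice 1 to 4, so that 7 libraries lay under 2 CPM. Without A20KIKO mouse 4 its log2 change was 0.62 (edgeR adjusted p = 0.861), and without both mice 4 it was 0.93. Sprr2d, the most abundant, had a log2 change of 3.68 (SE 1.93, adjusted p = 0.451 in edgeR), which was -0.37 without A20KIKO mouse 4 and 0.54 without both mice 4. It stood at 1359 CPM in A20KIKO mouse 4 and at 67.0 CPM or less in the other 7 libraries. Sprr2i stood at 3.75, 5.75, 6.67 and 385 CPM in A20KIKO and at 4.10, 1.03, 4.23 and 8.87 CPM in A20WT. Its log2 change was 4.46 (SE 1.94, edgeR adjusted p = 0.352) and 0.24 without A20KIKO mouse 4. Sprr2h stood at 12.3, 4.03, 3.28 and 259 CPM in A20KIKO and at 15.7, 2.27, 17.3 and 51.5 CPM in A20WT. There the log2 change was 1.68 (SE 1.69, edgeR adjusted p = 0.735) and -1.71 without A20KIKO mouse 4. Sprr2j-ps, with a fitted difference of 4.88 (SE 2.35, edgeR adjusted p = 0.407), stood at 58.1 CPM in A20KIKO mouse 4 and at 1.24 CPM or less elsewhere.

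The copies Sprr2a1, Sprr2a2 and Sprr2a3 share up to 96.5% of their 50-base words with other genes, and their separate values are uncertain. Without these 3 the Sprr2 median was 3.77 with all libraries and -0.64 without A20KIKO mouse 4. Sprr2k and Sprr2c-ps did not pass the count filter. Sprr2k had 1917 counts in A20KIKO, at 21.8 CPM in mouse 4 and 0.0468 CPM or less in mice 1 to 3, and 23 counts in A20WT.

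In the 7 Sprr2 promoters with an AP-1 match the motif began between -198 and -193, and the TATA box began at -29 in all 7. The AP-1 windows are shown to compare the array, with the match in capitals and all on the plus strand, in the order chr3:92316496-92316530, chr3:92338933-92338967, chr3:92351936-92351970, chr3:92364976-92365010, chr3:92385473-92385507, chr3:92407784-92407818 and chr3:92432372-92432406. Sprr2k holds a further match, also in capitals.
Sprr2b: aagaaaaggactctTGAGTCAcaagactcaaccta
Sprr2d: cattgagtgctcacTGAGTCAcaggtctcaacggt
Sprr2e: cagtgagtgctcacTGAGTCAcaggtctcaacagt
Sprr2f: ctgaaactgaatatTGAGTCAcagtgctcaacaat
Sprr2h: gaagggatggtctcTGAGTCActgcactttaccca
Sprr2i: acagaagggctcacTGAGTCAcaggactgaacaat
Sprr2k: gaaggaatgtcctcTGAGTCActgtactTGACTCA
The 90 bases before the start site are shown for Sprr2d (chr3:92339050-92339139) and Sprr2i (chr3:92407901-92407990), with the TATA box in capitals.
Sprr2d: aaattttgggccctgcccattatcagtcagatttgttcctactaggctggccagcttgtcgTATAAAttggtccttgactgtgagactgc
Sprr2i: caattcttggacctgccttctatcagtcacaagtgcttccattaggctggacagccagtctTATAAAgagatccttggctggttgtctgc

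The Sprr1 genes followed the same libraries. Sprr1b stood at 13.7, 5.75, 3.21 and 236 CPM in A20KIKO mice 1 to 4 and at 20.6, 1.53, 23.6 and 63.9 CPM in A20WT mice 1 to 4. Mouse 4 was the highest in each group. Its log2 change was 1.24 (SE 1.66, edgeR adjusted p = 0.808) with all libraries and -1.84 without A20KIKO mouse 4. Sprr1a, which was abundant in every library, stood at 195, 188, 214 and 760 CPM in A20KIKO and at 258, 126, 205 and 358 CPM in A20WT (log2 change 0.52, SE 0.57, edgeR adjusted p = 0.758). Sprr4 did not share this pattern, at 32.2 to 39.5 CPM in A20KIKO and 19.2 to 33.1 CPM in A20WT (log2 change 0.32, SE 0.16, edgeR adjusted p = 0.378). Sprr3 had 7 counts in A20KIKO and 1 in A20WT and was not tested.

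The Lce3 genes encode late envelope proteins that are low in intact skin, and their human relatives are known for a deletion associated with psoriasis. Their summed level was 45.3, 27.8 and 24.9 CPM in A20KIKO mice 1 to 3 and 933 CPM in mouse 4, and 82.1, 23.5, 78.5 and 406 CPM in A20WT mice 1 to 4. Mouse 4 was the highest of its group in 6 of 6 genes in both groups, and A20KIKO mouse 4 was 2.30-fold above A20WT mouse 4. No Lce3 gene was called by edgeR or limma-voom, with edgeR adjusted p from 0.744 to 0.99 and 0 with an unadjusted p under 0.05. DESeq2 called none and gave no adjusted p for 5 of the 6. All 6 changes were positive with all libraries and all 6 were negative without A20KIKO mouse 4, as well as without both mice 4 (median -0.36).

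Lce3c, the most abundant, stood at 20.7, 20.4, 16.5 and 240 CPM in A20KIKO mice 1 to 4 and at 59.7, 20.4, 45.9 and 159 CPM in A20WT mice 1 to 4 (log2 change 0.06, SE 1.15, edgeR adjusted p = 0.99). Lce3b stood at 2.12, 0.467, 0.588 and 167 CPM in A20KIKO and at 1.49, 0.162, 2.45 and 31.4 CPM in A20WT (log2 change 2.26, SE 2.34, edgeR adjusted p = 0.744). Lce3d stood at 8.01, 2.46, 2.18 and 153 CPM in A20KIKO and at 8.84, 0.847, 13.3 and 87.3 CPM in A20WT (log2 change 0.59, SE 1.83, edgeR adjusted p = 0.932). In these 3 genes mouse 4 exceeded mice 1 to 3 of its own group. Lce3 members share up to 49.3% of their 50-base words with other genes. The last 90 bases before the start site of Lce3a, at chr3:92926231-92926320 (minus strand), hold none of the 5 motifs.
Lce3a: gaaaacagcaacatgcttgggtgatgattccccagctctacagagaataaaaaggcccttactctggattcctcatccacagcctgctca

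Other transcripts were also high in A20KIKO mouse 4. The 4 stress keratins Krt6a, Krt6b, Krt16 and Krt17, which are induced in wounded or hyperproliferative epidermis, summed to 11743 CPM in A20KIKO mouse 4, to 1836 to 2822 CPM in A20KIKO mice 1 to 3, to 3129 CPM in A20WT mouse 4 and to 1129 to 1974 CPM in A20WT mice 1 to 3. None of the 4 was called by edgeR, and 1 had an unadjusted p under 0.05. A list of 11 neutrophil markers, of which 1 was tested and Elane was at 0, summed to 99.2 CPM in A20KIKO mouse 4, 9.81 to 12.8 CPM in A20KIKO mice 1 to 3, 13.1 CPM in A20WT mouse 4 and 3.57 to 13.0 CPM in A20WT mice 1 to 3. A list of 7 mast cell markers summed to 29.0 CPM in A20KIKO mouse 4, of which Hdc held 25.8 CPM, to 4.56 to 6.82 CPM in A20KIKO mice 1 to 3 and to 2.33 to 4.13 CPM in A20WT. The part of these transcripts in the Sprr1, Sprr2 and Lce3 levels was not tested.

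**Figure D4:**
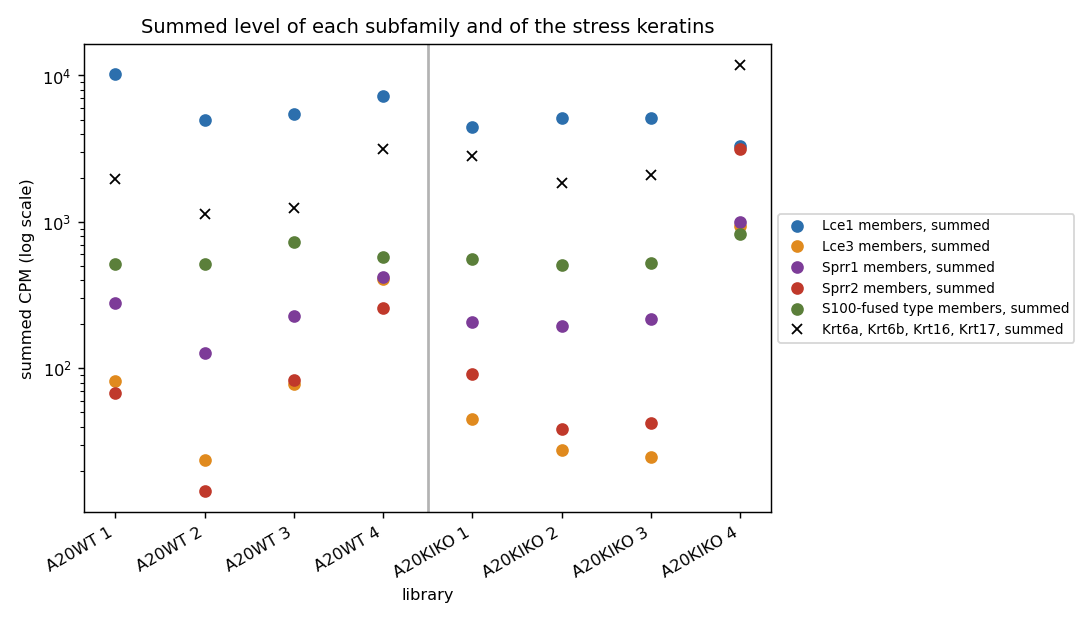
Summed CPM (log scale) of the members of 5 subfamilies and of the 4 stress keratins in each library, A20WT on the left and A20KIKO on the right. Sprr2, Lce3 and the stress keratins are highest in A20KIKO mouse 4, where Lce1 is lowest.

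Markers of the keratinocyte layers stood beside the Lce1 and Flg2 values. The 6 basal markers summed to 22718 to 28441 CPM in A20KIKO and 30961 to 41214 CPM in A20WT, and these sums did not overlap. Gene by gene, only 1 of the 6, Krt5, did not overlap. Krt14 overlapped, at 14269 to 20357 CPM in A20KIKO and 15258 to 25733 CPM in A20WT. Krt5 was also the 1 marker of the 6 called lower (log2 change -0.83, edgeR adjusted p = 0.00272). The Krt5 promoter also drives the Cre, which A20WT mice lack. An effect of the Cre allele on Krt5 thus cannot be told apart from a change in basal cells. Over all genes tested 1.06% were called lower in A20KIKO, and 4.79% did not overlap in that direction. The 7 suprabasal markers summed to 26163 to 32324 CPM in A20KIKO and 21591 to 30958 CPM in A20WT, with 1, Krt77, called lower (log2 change -0.83, edgeR adjusted p = 0.0259). That call held in 2 of 8 fits with a library left out, without A20KIKO mouse 1 or A20WT mouse 3, and was lost without any of the other 6 (adjusted p up to 0.0866) or without both mice 4 (0.182). Of the hair follicle outer sheath and isthmus markers 1 of 6, Lgr6, was called lower (edgeR adjusted p = 0.0145, lost without A20KIKO mouse 1 or A20WT mouse 3 and without both mice 4), and the list summed to 1709 to 2078 CPM in A20KIKO and 1605 to 1739 CPM in A20WT. The part of any of these in the member values was not tested.

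The rest of the cornification programme showed no call in edgeR. Of 39 genes for keratins, cross-linking, lipid processing and proteases of the upper layers, 37 were tested. Of these 8 had an unadjusted p under 0.05, against 15.4% of all genes. The median log2 change of the 37 was 0.15 with all libraries and -0.02 without A20KIKO mouse 4 (all genes -0.01 in both). Krt10, a keratin of suprabasal layers, stood at 17687 to 25215 CPM in A20KIKO and 13704 to 20581 CPM in A20WT (log2 change 0.20, edgeR adjusted p = 0.652). Krt2, a keratin of the granular layer, stood at 36042 to 51553 CPM in A20KIKO and 32885 to 42139 CPM in A20WT (log2 change 0.24, edgeR adjusted p = 0.513). DESeq2 called 3 of the list, Klk5, Klk8 and Spink5, where it called 6.86% of all genes. Their directions differed, with log2 changes in edgeR of -0.36 for Klk5, -0.54 for Klk8 and 0.48 for Spink5. Limma-voom called Klk5 and Spink5, where it called 6.73% of all genes. The 3 genes encode skin proteases and their inhibitor and are named after their values were seen.

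Among 41 regulators of epidermal differentiation, 2 were called higher and 0 lower in A20KIKO, where 2.43% and 1.06% of all genes were. Of the 41, 10 had an unadjusted p under 0.05, against 15.4% of all genes. The median log2 change was 0.03. The 11 monocyte and macrophage markers summed to 108 to 192 CPM in A20KIKO and 65.9 to 108 CPM in A20WT, with 3 called higher (C1qa, C1qb and C1qc), and their part in the regulator levels was not tested. Nfkbiz, which encodes a nuclear regulator of NF-kB target genes, stood at 47.7, 52.7, 57.6 and 96.1 CPM in A20KIKO and at 25.8, 18.5, 29.0 and 37.3 CPM in A20WT (log2 change 1.20, SE 0.25, edgeR adjusted p = 0.0218). Its groups did not overlap. The call was lost without A20WT mouse 1 (adjusted p = 0.143), A20WT mouse 2 (0.0525) or A20WT mouse 3 (0.0755), and with no count filter (0.0599).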

How the data were processed

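RNA of ear epidermal sheets from 8 mice was copied with the SMART-Seq v4 kit, amplified by PCR and tagmented, per the labels' protocols. The authors deposited raw counts per Ensembl gene, in 2 lane columns per library. The submitters' processing notes name STAR 2.4.2a, Picard 1.139, HTSeq 0.6.1p1, GRCm38.p5 and GRCh38, with no roles given. Which annotation and counting options were used is not stated in the labels. This chemistry has no molecular identifiers, so a count is not a separate molecule.

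Lanes were summed. Of 51912 identifiers 51633 matched a symbol, and positions are from GENCODE M21 (GRCm38). Groups were taken from the labels. Library totals were 40451075 to 89624373 counts. In R 4.3.3, edgeR 4.0.16 kept 16512 genes with filterByExpr (minimum count 10, total 15), applied TMM scaling and tested the group with a robust quasi-likelihood fit, two-sided, with Benjamini-Hochberg adjustment over all of them, called under 0.05. The SE is the absolute log2 change over the square root of the F statistic. RPKM divides scaled CPM by the union of a gene's exons. The pipeline was tested on simulated counts. Settings varied were the size factors (RLE, upper quartile), the filter (none, or a stricter one of 5 CPM in 4 libraries), the tool (DESeq2 1.42.0, limma-voom (limma 3.58.1) with sample weights), the replicate number as a block, and each library left out. Leaving out both mice 4 was added after seeing the data. Python 3.11.15 drew the plots.

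Called members were described one by one, with the 3 most abundant of each subfamily and the 3 with the largest log2 change. Of other lists up to 4 called genes were named, or the 2 most abundant; 1 called regulator is not reported here. The members and lists were chosen with earlier results of these data known, so counts over them are no independent support.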

Additional observations from a re-analysis of the deposited data

Results flagged for a closer look

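In 31 of 92 groups of 4 libraries examined, the highest library lay so far from the other 3 that its gap to the nearest exceeded Dixon's 95% critical value, taken as a share of the group's range. For normally distributed values chance flags about 1 group in 20, but the CPM values need not be so distributed. Sprr3 and Sprr2c-ps stood at 0 CPM in A20KIKO mice 1 to 3, which alone puts mouse 4 past that critical value. The members also share libraries and in part sequence, so the 31 are not independent and are not to be set against that rate. A20KIKO mouse 4 was the outlying library in 24 of them and A20WT mouse 4 in 6.

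Among the Sprr genes A20KIKO mouse 4 stood at 22.8 CPM for Sprr2a1, 21.6 CPM for Sprr2a2, 198 CPM for Sprr2a3, 315 CPM for Sprr2b, 0.125 CPM for Sprr2c-ps, 1359 CPM for Sprr2d and 293 CPM for Sprr2e. It stood at 103 CPM for Sprr2f, 108 CPM for Sprr2g, 259 CPM for Sprr2h, 385 CPM for Sprr2i, 58.1 CPM for Sprr2j-ps and 21.8 CPM for Sprr2k. In the same library Sprr1b reached 236 CPM, Sprr1a 760 CPM and Sprr3 0.0797 CPM. The Lce3 values were 157 CPM for Lce3a, 167 CPM for Lce3b, 240 CPM for Lce3c, 153 CPM for Lce3d, 106 CPM for Lce3e and 110 CPM for Lce3f. Flg at 292 CPM and Rptn at 173 CPM were the S100-fused type genes so placed.

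A20WT mouse 4 was the outlying library for Sprr2k at 0.326 CPM, Lce3a at 35.3 CPM, Lce3b at 31.4 CPM, Lce3d at 87.3 CPM, Lce3e at 52.2 CPM and Lce3f at 40.4 CPM. A20KIKO mouse 1 was the outlying library for Crnn, at 0.819 CPM.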

How the results depend on the processing

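The Lce1 median kept its sign in each fit run, while those of Sprr1, Sprr2, Lce3 and the S100-fused type did not. With DESeq2 1 member was called higher and 5 lower, against 0 and 1 in edgeR, with no adjusted p for 14 of 44, where DESeq2 called 6.86% of all genes and edgeR 3.49%. With DESeq2 and limma-voom 3 and 2 cornification genes were called, against 0. Over all genes limma-voom called 6.73%, the fit with no count filter 2.24% and that with the replicate block 3.34%. Of the regulators 1 was called with no count filter, where Nfkbiz was lost, 7 with DESeq2, 5 with limma-voom and 4 with the replicate number as a block, against 2. The median over all members, 0.26, was -0.26 with the stricter filter, -0.19 with limma-voom and -0.02 with the block. The S100-fused type median, 0.20, was -0.28 with limma-voom, and the Sprr2 median, 3.36, was 1.21 with limma-voom and 1.33 with the block. The Sprr1 and Lce3 medians, 0.88 and 1.02, were 0.09 and 0.15 with limma-voom, 0.25 and 0.26 with the block and -0.49 and -0.36 without both mice 4. The Sprr3 and Sprr4 median was 1.23 with no filter, which adds Sprr3. Without both mice 4, 3 members did not overlap, where 18.7% of all genes did not, and the medians were -0.29 over all members and 0.25 in Sprr2. Limma-voom gave -0.02 for Sprr2h, -0.13 for Sprr1b, -0.61 for Lce3c and -0.25 for Lce3d. Without both mice 4 these were -0.84, -1.0, -1.13 and -0.85, and Lce3b was -0.36. The cause of these shifts was not tested.

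With each library left out in turn, 0 to 1 members were called higher, 0 to 4 lower, 1 to 11 did not overlap (11 without A20WT mouse 2, where 14.4% of all genes did not), 0 to 1 cornification genes and 1 to 3 regulators were called. Over all genes 12.8% to 16.1% did not overlap in these fits. The medians ranged from -0.54 to 0.43 over all members, -1.05 to 1.44 in Sprr1, -1.01 to 4.58 in Sprr2, -2.39 to 2.84 in Lce3 and -0.32 to 0.60 in the S100-fused type, each lowest without A20KIKO mouse 4. Log2 changes ranged from -0.37 to 4.58 for Sprr2d, -1.71 to 2.56 for Sprr2h, -0.57 to 5.76 for Sprr2j-ps, -1.84 to 2.08 for Sprr1b and -0.25 to 0.79 for Sprr1a. In Lce3 they ranged from -3.01 to 4.93 for Lce3b, -1.90 to 0.83 for Lce3c and -2.68 to 2.43 for Lce3d. Without A20WT mouse 1, 2 or 3 Lce3c was -0.02, -0.24 and -0.10.

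The replicate numbers are not known to pair animals. Deviations of same-numbered libraries correlated from -0.014 to 0.237, and 3 of 8 libraries correlated best with their own number. With the replicate block 1 member, Flg2, was called (edgeR adjusted p = 0.00299), 551 genes were called against 576, and the log2 changes of Lce3c and Lce3d were -0.60 and -0.07. With 4 mice a group, changes with an SE above 1, as in Sprr2 and Lce3, are not resolved. Sprr3 and Sprr2c-ps had too few counts to test. Sprr2k did not pass the count filter, with 1913 of its 1917 A20KIKO counts in mouse 4.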

Other observations

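Hrnr and Flg2 held different proportions in the 2 groups, a pair chosen after the values were seen and given without a test. Their fitted log2 changes went in opposite directions (Hrnr 0.45, Flg2 -0.90). A shift in their ratio follows from that choice and adds no support to either change. Hrnr had 3.04, 2.74, 3.42 and 4.95 counts per count of Flg2 in A20KIKO mice 1 to 4 and 1.13, 0.992, 1.44 and 1.89 in A20WT mice 1 to 4. The groups did not overlap. Flg had 0.926, 0.955, 0.949 and 4.85 counts per count of Flg2 in A20KIKO and 0.859, 0.535, 1.04 and 1.72 in A20WT, where mouse 4 was the highest of each group and the other libraries overlapped.

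The balance between subfamilies set the mice labelled 4 apart. Lce3 counts were 1.01%, 0.545%, 0.489% and 28.4% of Lce1 counts in A20KIKO mice 1 to 4, and 0.807%, 0.471%, 1.43% and 5.57% in A20WT mice 1 to 4. Sprr2 counts were 2.04%, 0.751%, 0.834% and 95.7% of Lce1 counts in A20KIKO and 0.667%, 0.291%, 1.51% and 3.52% in A20WT.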
